A study of Mus musculus with 4 samples.

Results

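Origin licensing is the step of the cell cycle that marks where DNA replication may start. In G1 the origin recognition complex, Cdc6 and Cdt1 load the MCM2-7 helicase, a ring of 6 related subunits, onto DNA, and the ring is switched on as S phase begins. Geminin, the product of Gmnn, then binds Cdt1 and blocks new loading, so that no origin fires again in the same cycle, and Pcna forms the sliding clamp that holds DNA polymerases on the template. Normal plasma cells have left the cell cycle, whereas plasmacytoma lines keep dividing and need these genes in every cycle.

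The transcripts of 10 such genes were followed in MPC11, a mouse plasmacytoma line: the helicase subunits Mcm2 to Mcm7, the loaders Cdc6 and Cdt1, the inhibitor Gmnn and the clamp Pcna. They were taken by gene symbol, and all 10 were found among the 22722 genes counted in each library. The Ell2-KD group (2 libraries) carried the lentiviral hairpin pLKO.1-shELL2-1C7 against Ell2, which encodes an elongation factor of RNA polymerase II. The shGFP group (2 libraries) carried pLKO.1-shGFP, directed at a sequence that mouse cells lack. Both groups were exposed to virus for 18 h, selected in puromycin for 72 h and expanded for another 72 h. Each group rests on 1 hairpin, and separate transduction of the biological replicates is not stated, so every p-value here reflects variation among these 4 samples, which may be technical.

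Library totals were 13914488 and 3496471 counts for Ell2-KD replicates 1 and 2, and 8323915 and 5088789 counts for shGFP replicates 1 and 2. Ell2 itself stood at 102 ± 19.5 CPM in Ell2-KD cells and 967 ± 41.2 CPM in shGFP cells (SD, n = 2 each; edgeR adjusted p = 0.000323), where CPM is the count scaled to sequencing depth with TMM factors. The submitters had checked ELL2 transcript levels before sequencing, so this value checks the labels only. All 8 plasma cell markers looked for were counted, and they summed to 17536 and 13812 CPM of all counts in Ell2-KD replicates 1 and 2, against 21553 and 16541 CPM in shGFP replicates 1 and 2. Their log2 changes were all negative, from -4.56 for Tnfrsf17 to -0.052 for Xbp1, where 50.1% of all genes tested were negative. Of the 8, 0 had an edgeR adjusted p below 0.05 (lowest 0.183, for Tnfrsf17). Tnfrsf17 had 18 and 1 counts in Ell2-KD replicates 1 and 2, against 159 and 126 counts in shGFP replicates 1 and 2. The part of these markers in the results below was not tested. The 11 T and NK cell markers summed to 5.61 and 13.4 CPM in Ell2-KD libraries, against 11.3 and 8.25 CPM in shGFP libraries. The 10 myeloid markers summed to 4.46 and 4.58 CPM in Ell2-KD libraries, against 1.56 and 3.14 CPM in shGFP libraries, with S100a8 and Fcgr3 at 0 counts in all 4. The 10 stromal and epithelial markers summed to 456 and 593 CPM in Ell2-KD libraries, against 495 and 634 CPM in shGFP libraries, nearly all of it from Epcam, while Dcn had at most 1 count in any library.

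Many replication genes carry sites for E2F, the transcription factor family that switches them on at the passage from G1 to S phase, and the promoters of these genes were searched for such letters. RefSeq promoter windows of build GRCm38.p6, each with 250 bases before and 50 after a start site, were found for 8 of the 10 genes, in 9 windows since Mcm7 has 2; Mcm4 and Gmnn had none in the table used. The motifs TTTCCCGC, TTTCGCGC, TTTGCCGC and TTTGGCGC were searched on both strands. At least 1 of them was present in 6 of the 9 windows (66.7%), against 2.26% of all 32851 windows in the table and 28.3% of 106 windows of other replication genes. The windows of Mcm3, Mcm5, Mcm6, Mcm7, Cdt1 and Cdc6 held a match, while those of Mcm2 and Pcna and the other Mcm7 window did not. A match describes letters only and is no measured binding site, and these counts say nothing about the factor. The stretches of 30 bases shown here make the shared letters visible. Each is written 5′ to 3′ on the strand of its gene, with the matched letters in capitals.
Mcm3: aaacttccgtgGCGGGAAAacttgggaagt
Mcm5: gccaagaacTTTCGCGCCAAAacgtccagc
Mcm6: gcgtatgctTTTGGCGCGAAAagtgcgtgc
Mcm7: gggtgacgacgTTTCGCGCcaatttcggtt
Cdt1: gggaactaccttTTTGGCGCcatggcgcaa
Cdc6: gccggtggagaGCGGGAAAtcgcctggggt

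The stretches lie at chr1:20820275-20820304 on the minus strand for Mcm3, chr8:75109347-75109376 on the plus strand for Mcm5 and chr1:128359795-128359824 on the minus strand for Mcm6. Those of Mcm7, Cdt1 and Cdc6 lie at chr5:138171849-138171878 on the minus strand, chr8:122568035-122568064 on the plus strand and chr11:98908002-98908031 on the plus strand. In Mcm5 and Mcm6 the capitals cover a pair of overlapping matches, 1 on each strand, that share the letters GCGC. Mcm3, Mcm6 and Mcm7 each held another match elsewhere in the window. The matches shown begin 153 bases before the start site in Mcm5, 138 before it in Cdc6 and 110 before it in Mcm6, and 17, 20 and 33 bases after it in Mcm7, Mcm3 and Cdt1. The CCAAT box, the letters CCAAT on either strand, was present in 7 of the 9 windows (77.8%), against 47.2% of the windows of other replication genes and 37.4% of all windows. The GC box GGGCGG was likewise present in 7 of the 9 (77.8%), against 74.5% of the windows of other replication genes and 35.7% of all windows.

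No licensing gene passed the test between Ell2-KD and shGFP cells. All 10 had enough counts to be tested, and 0 of them had an edgeR adjusted p below 0.05, where 0.0453% of the 11027 genes tested did (5 genes, Ell2 among them; 0.00907% with a positive and 0.0363% with a negative change). DESeq2 also called 0 of the 10, where it called 0.443% of the 10385 genes to which it gave an adjusted p (46 genes). At an unadjusted p below 0.05 each tool gave 1 of the 10, Mcm4, where edgeR gave 5.82% of all tested genes (2.57% positive, 3.26% negative) and DESeq2 6.25%. The log2 change was above 0 for 7 of the 10 and below 0 for 3, with a median of 0.19, beside a median of -0.0015 over all genes tested, of which 49.9% were above and 50.1% below 0. Leaving out Ell2-KD replicate 1 put the median of the 10 at 0.055, leaving out shGFP replicate 2 put it at 0.047, and leaving out shGFP replicate 1 put it at 0.22. In bulk RNA a different share of cells in the phase that makes a transcript and a different amount of it per cell cannot be told apart.

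Mcm4 had the largest log2 change of the 10. It encodes a subunit of the helicase ring that belongs to its catalytic core together with Mcm6 and Mcm7. It had 457 and 524 CPM in Ell2-KD replicates 1 and 2, against 356 and 298 CPM in shGFP replicates 1 and 2, from 6445 and 1789 counts against 2988 and 1503 counts. Both Ell2-KD libraries lay above both shGFP libraries. The log2 change was 0.58 ± 0.21 (SE), with a 95% confidence interval of 1.08-fold to 2.08-fold, at an edgeR unadjusted p of 0.0204 and an edgeR adjusted p of 0.756. Among all tested genes, 27.5% had a change at least as large in either direction. Within replicate number 1 the log2 CPM difference was 0.36 and within number 2 it was 0.81. With 1 library left out the log2 change ranged from 0.46 (without shGFP replicate 2) to 0.73 (without shGFP replicate 1), and the lowest adjusted p under any alternative tried was 0.25.

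Mcm2 was the other gene whose groups did not overlap. Its protein forms, with Mcm5, the gate through which the ring opens around DNA, and it also binds histones. It had 322 and 291 CPM in Ell2-KD replicates 1 and 2, against 262 and 217 CPM in shGFP replicates 1 and 2. The log2 change was 0.35 ± 0.22 (SE; edgeR adjusted p = 0.906), with a 95% confidence interval from -0.14 to 0.85. Of the 10 genes, 2 therefore had both Ell2-KD libraries above both shGFP libraries and 0 had both below. Over all genes tested the groups did not overlap for 35.8%, with Ell2-KD higher for 17.4% and lower for 18.5%. The share among these 10 genes is below the 35.8% for either direction and near the 17.4% for Ell2-KD higher. It is therefore no result about them.

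The remaining helicase subunits had groups that overlapped. Mcm6, another part of the catalytic core, had 580 and 760 CPM in Ell2-KD replicates 1 and 2, against 466 and 637 CPM in shGFP replicates 1 and 2. In each group replicate 2 was the higher, and within each replicate number the Ell2-KD library was higher, by 0.32 and 0.25 on the log2 scale. The log2 change of Mcm6 was 0.28 ± 0.23 (SE; edgeR adjusted p = 0.959). Mcm5 had 309 and 362 CPM in Ell2-KD replicates 1 and 2, against 398 and 329 CPM in shGFP replicates 1 and 2. It was the subunit with a negative log2 change, -0.12 ± 0.22 (SE; edgeR adjusted p = 0.999), and the groups crossed: the Ell2-KD library was the lower within number 1 and the higher within number 2.

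Mcm3 and Mcm7 had the largest folds between the Ell2-KD libraries among the 10 genes, above the folds between their group means. Mcm3, a partner of Mcm5 in the ring, had 273 and 506 CPM in Ell2-KD replicates 1 and 2, against 308 and 358 CPM in shGFP replicates 1 and 2. The lowest and the highest of the 4 values were thus both Ell2-KD, 1.85-fold apart, while the shGFP libraries were 1.16-fold apart. The log2 change of Mcm3 was 0.22 ± 0.28 (SE; edgeR adjusted p = 0.990). Mcm7, which completes the catalytic core, had 218 and 100.4 CPM in Ell2-KD replicates 1 and 2, against 151 and 130 CPM in shGFP replicates 1 and 2. Here too the extremes were both Ell2-KD, 2.17-fold apart, but with replicate 1 the higher, the reverse of Mcm3. The log2 change of Mcm7 was 0.19 ± 0.34 (SE; edgeR adjusted p = 0.999), the widest error of the 10. Exons of Mcm7 overlap those of Ap4m1, Cops6, Mir25 and Mir93 over 12.6% of their length in GENCODE M21. Its count can therefore include reads of those genes, or lack reads that matched more than 1 gene. How such reads were counted is not given in the sources used here. No exon of the other 9 genes overlaps another gene there.

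**Figure D1:**
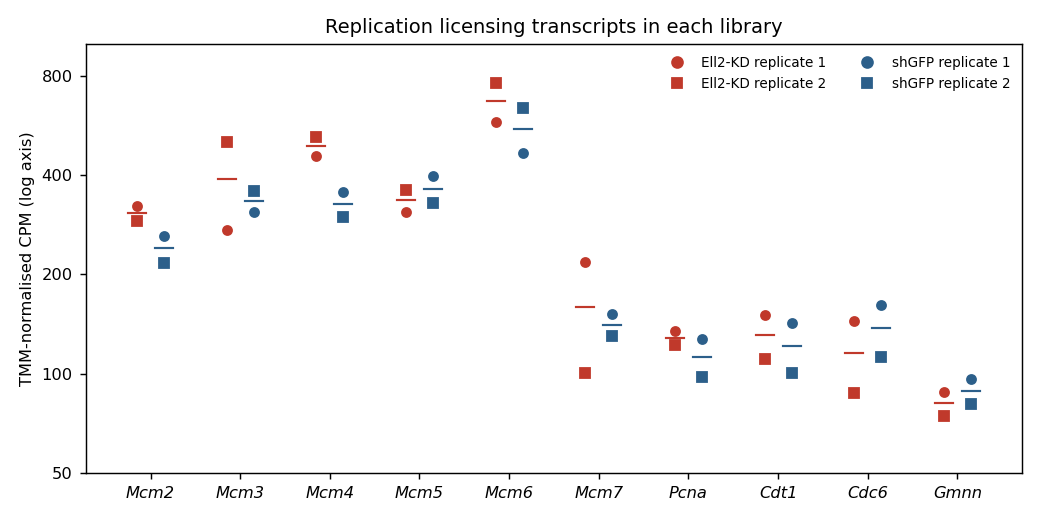
TMM-normalised CPM (log axis) of each of the 10 genes in each library, Ell2-KD in red at the left and shGFP in blue at the right; circles are replicate 1, squares replicate 2, and bars the group means. Red and blue symbols do not overlap for Mcm2 and Mcm4, and the red symbols of Mcm3 and Mcm7 enclose the blue ones.

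The loaders Cdc6 and Cdt1 differed more between the libraries of each group than between the group means, as did Mcm5, Mcm6, Mcm7 and Gmnn. Cdc6, the ATPase that brings Cdt1 and the helicase to the origin recognition complex, had 144 and 87.2 CPM in Ell2-KD replicates 1 and 2, against 162 and 113 CPM in shGFP replicates 1 and 2. Replicate 1 was the higher in both groups, and within each number the Ell2-KD library was the lower. Its log2 change of -0.24 ± 0.32 (SE; edgeR adjusted p = 0.990) was the most negative of the 10. Cdt1, the helicase chaperone that is destroyed in S phase, had 151 and 111 CPM in Ell2-KD replicates 1 and 2, against 142 and 100.6 CPM in shGFP replicates 1 and 2. Again replicate 1 was the higher in both groups. The log2 change of Cdt1 was 0.11 ± 0.29 (SE; edgeR adjusted p = 0.999).

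The groups also overlapped for the inhibitor and the clamp. Gmnn had 87.9 and 74.6 CPM in Ell2-KD replicates 1 and 2, against 96.5 and 80.8 CPM in shGFP replicates 1 and 2, which gives -0.12 ± 0.29 on the log2 scale (SE; edgeR adjusted p = 0.999). Pcna had 135 and 122 CPM in Ell2-KD replicates 1 and 2, against 127 and 98.0 CPM in shGFP replicates 1 and 2, which gives 0.19 ± 0.27 on the log2 scale (SE; edgeR adjusted p = 0.996). For both genes replicate 1 was the higher in each group. The GENCODE M21 annotation names the processed pseudogenes Pcna-ps1 and Pcna-ps2, neither of which has an entry in the count tables, and how reads that match Pcna and a copy were counted is not given in the sources used here.

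The 95% confidence intervals bound how large a change these libraries allow. They included 0 for 9 of the 10 genes, all but Mcm4, and they lay within 1 of 0 on the log2 scale for 9 of the 10, again all but Mcm4. The lowest bound was -0.94 for Cdc6, or 0.52-fold, and the highest 1.06 for Mcm4, or 2.08-fold. Each interval stands for 1 gene and is not adjusted for the number of genes. The standard errors ran from 0.21 for Mcm4 to 0.34 for Mcm7.

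**Figure D2:**
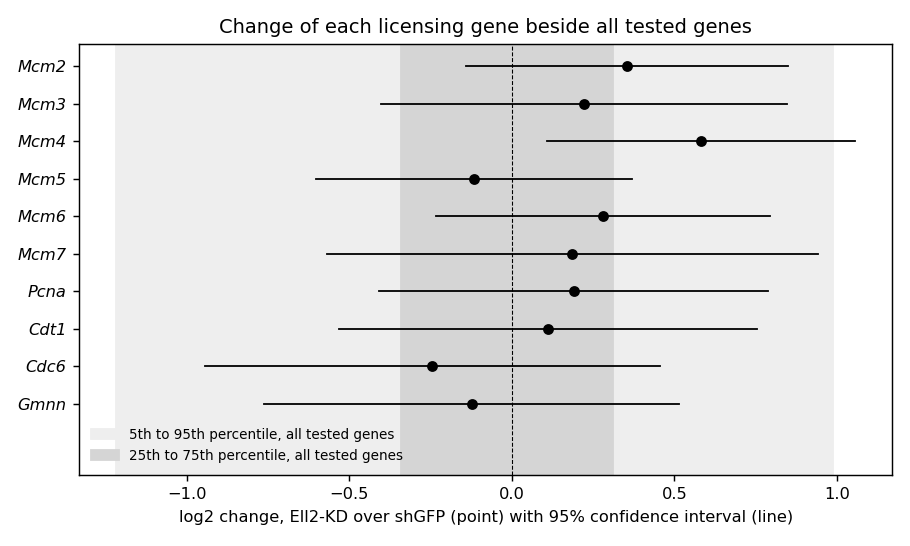
Log2 change of each gene, Ell2-KD over shGFP, from edgeR (points) with its 95% confidence interval (lines); the grey bands hold the central 50% (dark) and 90% (light) of all tested genes. The interval of Mcm4 lies above 0, from 0.11 to 1.06, and those of the other 9 genes include 0; 8 of the 10 points, all but Mcm2 and Mcm4, lie within the dark band, which runs from -0.34 to 0.31.

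The order of replicates 1 and 2 was the same in both groups for 8 of the 10 genes, all but Mcm4 and Mcm5, and for 59.8% of all genes tested. For 7 of the 10 the fold between group means was smaller than the fold between the Ell2-KD libraries, as for 63.6% of all genes, and for 7 of the 10 it was smaller than the fold between the shGFP libraries, as for 56.8% of all genes. It was larger than both for 2 of the 10, Mcm2 and Mcm4, and for 23.4% of all genes. The sign of the log2 CPM difference was the same within both replicate numbers for 7 of the 10 genes, all but Mcm3, Mcm5 and Mcm7, and for 57.3% of all genes. These counts were not tested against those over all genes.

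The sign of 6 genes depended on a single library. Without Ell2-KD replicate 2 the log2 change of Mcm3 was -0.28 and that of Cdc6 0.075. Without Ell2-KD replicate 1 it was -0.48 for Mcm7 and -0.14 for Cdt1, and Cdc6 then stood at -0.66. Without shGFP replicate 1 it was 0.038 for Mcm5, 0.055 for Cdc6 and 0.023 for Gmnn, and all 10 genes were then positive. Without shGFP replicate 2 it was -0.12 for Cdt1. Mcm2, Mcm4, Mcm6 and Pcna stayed positive whichever library was left out, although Pcna reached 0.013 and Mcm6 0.081. Each of these 4 fits leaves a single library in 1 group, so only the sizes of the changes are given here.

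**Figure D3:**
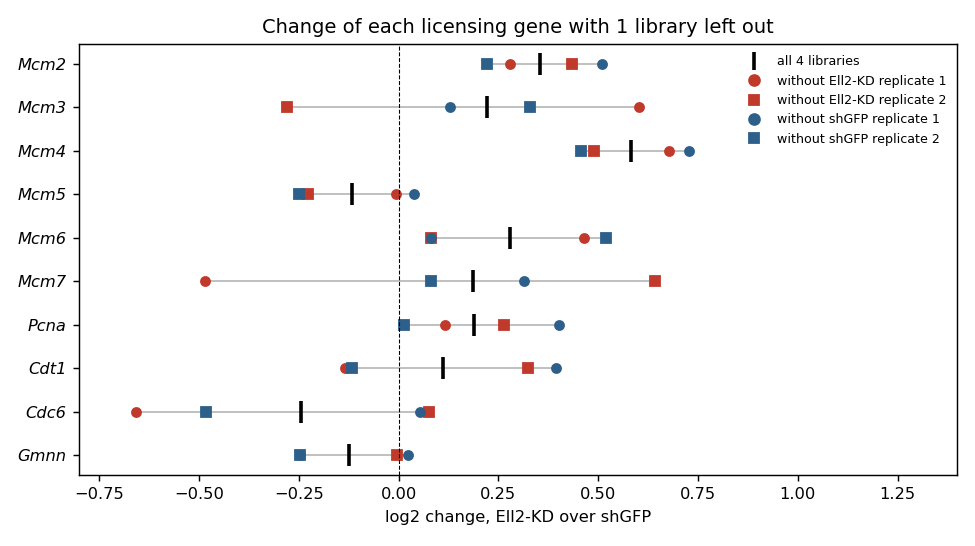
Log2 change of each gene, Ell2-KD over shGFP, with all 4 libraries (black bars) and with 1 library left out (red for an Ell2-KD library, blue for an shGFP library; circles replicate 1, squares replicate 2). Mcm3 spans -0.28 to 0.60 and Mcm7 spans -0.48 to 0.64, while Mcm4 stays between 0.46 and 0.73.

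Levels of different genes were compared as CPM per kb of exon, with the union of all GENCODE M21 exons of a gene as its length. These lengths come from build GRCm38 and the counts from mm9, so the levels are approximate. Over the 4 libraries the order was Mcm6 (131 ± 26.2 CPM per kb), Mcm4 (114 ± 28.1), Mcm3 (96.3 ± 27.3), Mcm5 (87.5 ± 9.75), Gmnn (58.0 ± 6.41), Pcna (50.2 ± 6.58), Cdt1 (40.2 ± 7.74), Mcm2 (39.3 ± 6.42), Mcm7 (33.9 ± 11.3) and Cdc6 (24.2 ± 6.35), where ± is the SD over all 4 libraries. Mcm5 and Gmnn were the neighbours whose ranges over the libraries did not overlap; the ranges of all other neighbours overlapped. Gmnn nevertheless stood above Pcna, Pcna above Cdt1 and Mcm7 above Cdc6 in 4 of 4 libraries.

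The length used mattered most for Mcm2 and Pcna, followed by Mcm7. Their exon unions of 6956, 2400 and 4426 bases are much longer than their longest transcripts of 3494, 1518 and 2962 bases. Per kb of the longest transcript Mcm2 stood at 78.2 CPM per kb, between Pcna at 79.3 and Gmnn at 75.4, and Mcm7 at 50.6. The order of Gmnn and Pcna thus depended on the length used. With the longest transcript Pcna was above Gmnn in Ell2-KD replicates 1 and 2 (88.6 and 80.4 against 78.0 and 66.2). It was below Gmnn in shGFP replicates 1 and 2 (83.7 and 64.6 against 85.6 and 71.7). Mcm6 remained the highest at 140.2 CPM per kb and Cdc6 the lowest at 26.3 CPM per kb. On this scale the ranges of Mcm5 and Pcna and those of Cdt1 and Cdc6 were the neighbouring pairs that did not overlap.

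The subunits of the ring are present at 1 copy each in the assembled helicase, but their transcripts were not equally abundant. Of the summed level of Mcm2 to Mcm7 per kb of exon union, Mcm6 took 24.98% and 27.2% in Ell2-KD replicates 1 and 2, against 22.0% and 29.8% in shGFP replicates 1 and 2. Mcm7 took 9.92% and 3.79% in Ell2-KD replicates 1 and 2, against 7.54% and 6.40% in shGFP replicates 1 and 2. These are the subunits with the highest and the lowest mean level, but not the extremes in every library. In Ell2-KD replicate 1 Mcm4 took 25.6% and Mcm2 9.32%. With the longest transcript as length, Mcm5 took 21.8% and Mcm6 19.8% in shGFP replicate 1. The limit from exons that Mcm7 shares with other genes holds here too. The ratio of Mcm6 to Mcm7 per kb was 2.52 and 7.18 in Ell2-KD replicates 1 and 2, against 2.92 and 4.66 in shGFP replicates 1 and 2. With the longest transcript as length it was 1.81 and 5.15 in Ell2-KD libraries, against 2.10 and 3.34 in shGFP libraries, so Mcm6 was above Mcm7 in every library with either length. Summed over the 6 subunits, the ring's transcripts came to 2351 ± 271 CPM in Ell2-KD cells and 1956 ± 19.5 CPM in shGFP cells (SD, n = 2 each). The sum was 2159 and 2542 CPM in Ell2-KD replicates 1 and 2, against 1942 and 1970 CPM in shGFP replicates 1 and 2; it is given with no test.

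**Figure D4:**
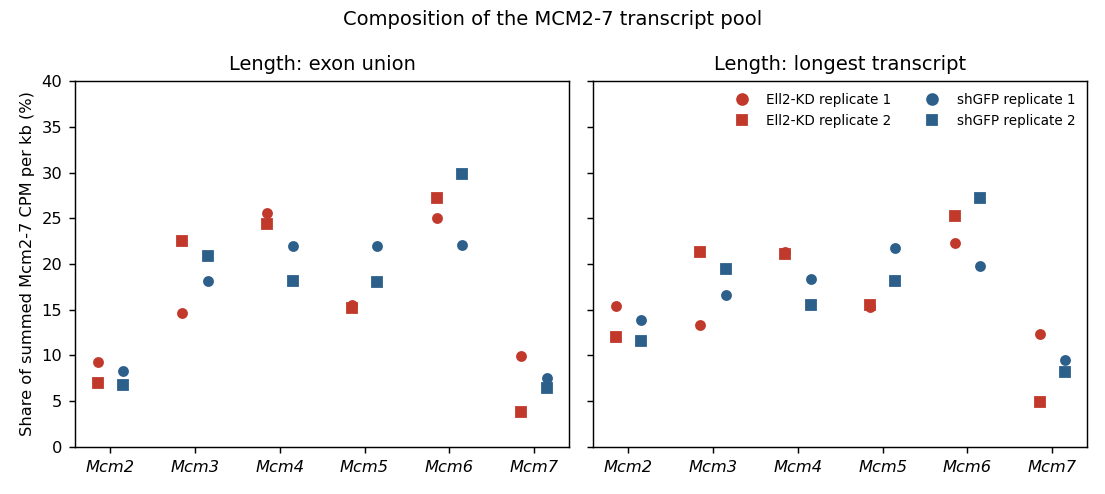
Share of each subunit in the summed Mcm2 to Mcm7 level (CPM per kb, %) in each library, with the exon union (left panel) or the longest transcript (right panel) as gene length; Ell2-KD in red, shGFP in blue, circles replicate 1, squares replicate 2. Mcm6 lies between 22.0% and 29.8% and Mcm7 between 3.79% and 9.92% in the left panel.

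Ratios within a library do not depend on the scaling of libraries. The ratio of Mcm4 to Mcm5 counts was 1.48 and 1.45 in Ell2-KD replicates 1 and 2, against 0.895 and 0.906 in shGFP replicates 1 and 2. Mcm4 thus made up 59.7% and 59.1% of the counts of the pair in Ell2-KD replicates 1 and 2 (Clopper-Pearson 95% confidence intervals 58.7 to 60.6% and 57.4 to 60.9%). It made up 47.2% and 47.5% in shGFP replicates 1 and 2 (46.0 to 48.5% and 45.8 to 49.3%). This pair was chosen after its values were seen, as the subunits with the highest and the lowest log2 change, so it is a description with no test, and the intervals cover counting error only. Of the 15 pairs of subunits, 3 had ratios that did not overlap between the groups, namely Mcm2 with Mcm4, Mcm2 with Mcm5 and Mcm4 with Mcm5. Of the 45 pairs of all 10 genes 15 did not overlap (33.3%), against 35.3% of all pairs of tested genes with counts in every library.

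Cdt1 and its inhibitor geminin act against each other, and their transcripts were set against each other in each library. The count ratio of Cdt1 to Gmnn was 1.72 and 1.48 in Ell2-KD replicates 1 and 2, against 1.47 and 1.25 in shGFP replicates 1 and 2. Cdt1 made up 63.2% and 59.7% of the counts of the pair in Ell2-KD replicates 1 and 2 (Clopper-Pearson 95% confidence intervals 61.6 to 64.9% and 55.8 to 63.6%). In shGFP replicates 1 and 2 it made up 59.6% and 55.5% (57.4 to 61.7% and 52.2 to 58.7%). These intervals, too, cover counting error only and leave out the variation between libraries. Replicate 1 had the higher ratio in both groups, and both Ell2-KD values lay above both shGFP values, though Ell2-KD replicate 2 and shGFP replicate 1 were nearly equal. Of all pairs of tested genes with counts in every library, 35.3% had ratios that did not overlap between the groups. That this pair did not overlap is therefore no result about it. The ratios of Cdt1 to Gmnn are given with no test. The smallest two-sided p that an exact permutation test of 2 libraries against 2 allows is 0.333.

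Other genes of replication were described by lists. Of 108 genes in 6 lists, all tested, 0 passed by edgeR and 0 by DESeq2, where they called 0.0453% and 0.443% of all genes. At an unadjusted p below 0.05 edgeR gave 5 of the 108 (4.63%; 4 positive, 1 negative), below the 5.82% over all genes. The 108 had 60 positive and 48 negative log2 changes and a median of 0.033, beside 0.19 for the 10 licensing genes. The origin recognition complex and MCM relatives (11 genes) had a median of 0.12, which ranged from -0.20 (without Ell2-KD replicate 1) to 0.33 (without Ell2-KD replicate 2). In this list Orc5 had 68.7 and 63.2 CPM in Ell2-KD libraries, against 39.4 and 17.5 CPM in shGFP libraries (log2 change 1.21 ± 0.42, SE; edgeR adjusted p = 0.746). Orc6, which binds the ring's loading machinery, went the other way with a log2 change of -0.69 ± 0.32 (edgeR adjusted p = 0.859). The MCM-binding protein Mcmbp stood at 0.36 ± 0.26 and the helicase relative Mcm8 at -0.55 ± 0.34 on the same scale.

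Factors that fire licensed origins (14 genes) had 7 positive and 7 negative changes and a median of -0.011, from -0.18 (without Ell2-KD replicate 1) to 0.16 (without Ell2-KD replicate 2). Of the 14, 0 had an edgeR unadjusted p below 0.05, where 5.82% of all genes tested did. For a list this short that is no result about it. Ticrr stood at a log2 change of 0.29 ± 0.30 and Donson at 0.25 ± 0.27, while Mtbp, the partner of Ticrr, stood at -0.41 ± 0.32 and the GINS subunit Gins1 at -0.35 ± 0.43. The polymerases, clamp loaders and other fork factors (32 genes) had 16 changes of each sign and a median of 0.0055, from -0.092 (without Ell2-KD replicate 1) to 0.16 (without Ell2-KD replicate 2). Dscc1, part of a clamp loader for Pcna, had 280 and 96 counts in Ell2-KD libraries, against 88 and 22 counts in shGFP libraries (log2 change 1.67 ± 0.61, edgeR adjusted p = 0.754). Rpa1, which coats single-stranded DNA, stood at 0.46 ± 0.21, the polymerase delta subunit Pold3 at -0.75 ± 0.33 and the polymerase epsilon subunit Pole4 at -0.53 ± 0.40.

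Kinases and ubiquitin ligases that act on licensing (19 genes) had a median of 0.077, from 0.0041 (without Ell2-KD replicate 2) to 0.13 (without shGFP replicate 2). Fbxo5, known as Emi1, which protects geminin by holding back the anaphase-promoting complex, had 155 and 157 CPM in Ell2-KD libraries, against 80.0 and 106 CPM in shGFP libraries (log2 change 0.75 ± 0.27, edgeR adjusted p = 0.754). Dtl, known as Cdt2, the adaptor that targets Cdt1 for destruction on Pcna, stood at 0.42 ± 0.22. Cyclin E1 (Ccne1), which drives S phase entry, stood at -0.64 ± 0.29, and the ligase scaffold Cul4a at -0.27 ± 0.30.

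The E2F and RB family (13 genes) had a median of 0.026, from -0.16 (without Ell2-KD replicate 2) to 0.067 (without Ell2-KD replicate 1). The E2F partners Tfdp1 and Tfdp2 stood at 0.20 ± 0.29 and -0.55 ± 0.35, and the pocket proteins Rbl1 and Rbl2 at 0.14 ± 0.26 and -0.56 ± 0.35. Genes of nucleotide supply and other S phase genes (19 genes) had a median of 0.13, from 0.029 (without Ell2-KD replicate 1) to 0.28 (without shGFP replicate 1). The deoxycytidine kinase Dck stood at 0.78 ± 0.34, while the mismatch repair gene Msh6 stood at -0.16 ± 0.22 and the ribonucleotide reductase subunit Rrm2 at -0.14 ± 0.25. The edgeR adjusted p of every gene in these lists was at least 0.746. Of the genes named here, Orc5, Orc6, Ticrr, Donson, Mtbp, Dscc1, Rpa1, Rbl2 and Msh6 overlap an exon of another gene in GENCODE M21. Their counts can therefore include reads of that gene, or lack reads that matched both.

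**Figure D5:**
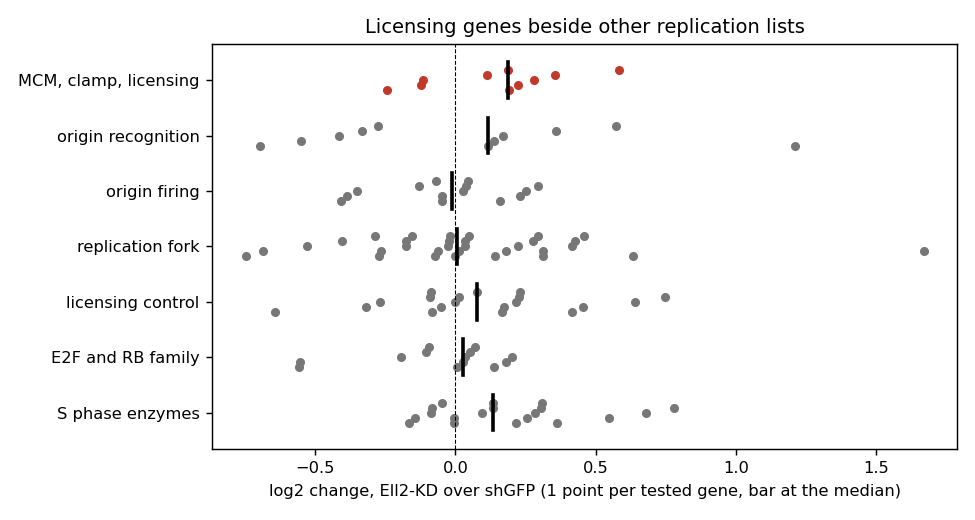
Log2 change, Ell2-KD over shGFP, of each tested gene (points) in the 10 licensing genes (red) and the 6 other replication lists (grey), with the median of each as a bar. The 10 genes lie between -0.24 and 0.58, and the outlying points at the right are Orc5 at 1.21 and Dscc1 at 1.67.

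The mean pattern of Mcm2 to Mcm7 across libraries spanned little. Centred on each gene's own mean, their log2 CPM averaged 0.076 and 0.15 in Ell2-KD replicates 1 and 2, against -0.083 and -0.14 in shGFP replicates 1 and 2. Among 104 genes of the other lists with at least 20 CPM on average, those nearest to this pattern by Euclidean distance over the 4 libraries were Cdk1 (0.060), the mitotic kinase, and Donson (0.12). Cdk1 had 272 and 281 CPM in Ell2-KD replicates 1 and 2, against 253 and 238 CPM in shGFP replicates 1 and 2. The subunits themselves lay farther from their own mean pattern, from 0.25 for Mcm2 to 0.86 for Mcm7. With 4 libraries this nearness is a description of small differences and no more.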

How the data were processed

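RNA of the 4 samples was sequenced on SOLiD, according to the labels. The authors deposited, for every library, a file of whole-number counts with 1 line per gene symbol, and these were taken as unnormalised. Build mm9, HTSeq 0.5.3, SAMtools 0.1.11 and DESeq 1.4.1 appear in the submitters' processing notes. Aligner, annotation and strand setting: not given in the sources used here, so reads of overlapping genes cannot be told apart. Using edgeR 4.0.16 (R 4.3.3), low genes were removed by filterByExpr (minimum count 10, total 15), leaving 11027 of 22722. TMM scaling was followed by a robust two-sided quasi-likelihood test with group as the only term. P-values were adjusted by the Benjamini-Hochberg method across the 11027 genes, with a threshold of 0.05. The SE is the log2 change divided by the square root of F, and log2 CPM used a prior count of 2. The procedure was tested on simulated counts. Alternatives were DESeq2 1.42.0, other scalings and filters, a replicate block, thinning, and leaving out each library. GENCODE M21 gave gene lengths and overlaps, and RefSeq gave the promoters and older symbols, through which 4 genes were matched. The genes named are the 10 licensing genes, Ell2, for every other list the 2 positive and 2 negative genes of lowest p, and the 3 nearest in pattern, of which some are not reported here; cell type markers were named after their values were seen. The members and lists were chosen with earlier results of these data known.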

Additional observations from a re-analysis of the deposited data

How the results depend on the processing

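None of the 10 licensing genes and none of the 108 genes of the other lists passed under any of the 12 alternatives tried. The number of all genes past the threshold, 5 with edgeR, was 46 with DESeq2, 22 with no filter on low counts, 1 without robust settings, 2 with libraries thinned to the shallowest total, and 14 to 142 with 1 library left out. It was 28 with the replicate number as a block. The labels do not say what the number marks, and the deviations of same-numbered libraries correlated at 0.31 over genes. The block changed no call among the licensing genes, with an adjusted p of 0.25 for Mcm4. With 1 library left out the log2 changes of 6 genes turned sign; they ranged from -0.28 to 0.60 for Mcm3, -0.25 to 0.038 for Mcm5, -0.48 to 0.64 for Mcm7, -0.14 to 0.39 for Cdt1 (also -0.12), -0.66 to 0.075 for Cdc6 (also 0.055) and -0.25 to 0.023 for Gmnn, and the cause was not tested. The median of the 10 ranged from 0.047 to 0.23 over the alternatives. With 1 library left out, the lone sample of a group is assumed to vary like the others. Ell2-KD replicate 2, the shallowest library, had 255 to 2596 counts per licensing gene, which limits precision.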
